A study of Mus musculus with 23 samples.

Results

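The 7 genes described here, Pou4f1, Pou4f2, Skor1, Isl2, Tlx1, Tlx3 and Phox2a, encode transcription factors or a corepressor of retinal, sensory, spinal and autonomic neurons. They were followed in mouse striatum, the input nucleus of the basal ganglia, after loss of Ezh1 and Ezh2. The members were all probe sets that the deposited annotation assigns to these symbols or to their older names: 9 of the 38143 probe sets with 1 gene symbol, and 7 of 20694 genes. Pou4f1 and Skor1 had more than 1 probe set and each other gene had 1. The genes were chosen by their dKO-minus-WT log2 differences on these same arrays. Their dKO-minus-WT differences are therefore given as a description, with no p-value. Calls of the members in those differences are counted later, with nothing read from the counts. Tests were read only for their course with age in WT, a contrast the choice did not use. That contrast nevertheless shares the WT arrays with the dKO-minus-WT differences.

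Total RNA of striatal tissue was hybridised to 23 Affymetrix arrays. The dKO mice carry the label Ezh1; Ezh2 Camk Cre, that is, alterations of both genes with a Cre recombinase under a Camk promoter, and the WT mice were littermates matched for age and sex. There were 3 dKO and 3 WT arrays at 6 weeks, 3 dKO and 4 WT at 3 months, and 6 dKO and 4 WT at 6 months. The sources used here do not give the deleted parts of the genes, the exact Camk promoter, or whether WT mice carried floxed alleles or Cre. Camk2a promoters are known for activity in forebrain neurons after birth, so bulk striatum also holds glia and vessel cells in which such a Cre is not active. Values are log2 RMA values that had been centred for each probe set, so they carry differences between arrays and no level: a value cannot say whether WT striatum expressed a gene at all, and probe sets cannot be ranked by brightness.

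PRC2, a Polycomb complex, methylates a lysine of histone H3 at promoters of developmental regulators, and either Ezh1 or Ezh2 serves as its enzyme. Genes for lineage-specifying transcription factors, often with CpG-rich promoters, are classic PRC2 targets and are kept silent in cells of other lineages. Pou4f1 and Pou4f2 (also Brn3a and Brn3b) are POU-homeodomain factors of sensory ganglia, the medial habenula and retinal ganglion cells. Skor1 is a transcriptional corepressor of dorsal spinal interneurons, first named Lbxcor1 for its partner Lbx1. Isl2 is a LIM-homeodomain factor of motor neurons and of some retinal ganglion cells. Tlx1 and Tlx3 select the glutamatergic fate of dorsal horn neurons, and Phox2a is a homeodomain factor of noradrenergic and cranial motor neurons.

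Promoter sequences of all 7 genes were taken from RefSeq on build GRCm38.p6, as windows of 300 bases that run from 250 before to 50 after a transcription start. The 4 printed here are those of the 3 genes with the largest differences and of Tlx3, whose window differed most in base composition. They are written 5′ to 3′ on the gene's strand, with each CpG in capitals. The Pou4f1 window lies at chr14:104467950-104468249 on the minus strand, the Pou4f2 window at chr8:78436598-78436897 on the minus strand, the upstream Skor1 window at chr9:63148912-63149211 on the minus strand, and the Tlx3 window at chr11:33203539-33203838 on the minus strand.
Pou4f1: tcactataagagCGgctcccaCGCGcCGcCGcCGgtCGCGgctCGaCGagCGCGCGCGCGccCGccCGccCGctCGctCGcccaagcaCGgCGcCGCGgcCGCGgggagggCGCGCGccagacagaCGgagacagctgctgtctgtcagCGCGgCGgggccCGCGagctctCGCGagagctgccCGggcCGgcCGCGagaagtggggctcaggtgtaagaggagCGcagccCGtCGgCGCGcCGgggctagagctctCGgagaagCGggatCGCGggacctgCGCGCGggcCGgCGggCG
Pou4f2: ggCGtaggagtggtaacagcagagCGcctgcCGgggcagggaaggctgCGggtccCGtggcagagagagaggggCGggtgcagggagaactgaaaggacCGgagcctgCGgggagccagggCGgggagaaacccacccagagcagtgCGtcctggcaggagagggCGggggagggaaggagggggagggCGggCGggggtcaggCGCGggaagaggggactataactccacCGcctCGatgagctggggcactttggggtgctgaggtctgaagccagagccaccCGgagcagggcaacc
Skor1: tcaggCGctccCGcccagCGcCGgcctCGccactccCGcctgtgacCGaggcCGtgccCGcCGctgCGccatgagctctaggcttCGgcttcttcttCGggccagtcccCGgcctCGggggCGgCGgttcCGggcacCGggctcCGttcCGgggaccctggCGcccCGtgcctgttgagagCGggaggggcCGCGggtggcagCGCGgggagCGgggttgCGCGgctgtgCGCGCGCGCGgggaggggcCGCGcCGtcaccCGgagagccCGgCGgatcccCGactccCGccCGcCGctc
Tlx3: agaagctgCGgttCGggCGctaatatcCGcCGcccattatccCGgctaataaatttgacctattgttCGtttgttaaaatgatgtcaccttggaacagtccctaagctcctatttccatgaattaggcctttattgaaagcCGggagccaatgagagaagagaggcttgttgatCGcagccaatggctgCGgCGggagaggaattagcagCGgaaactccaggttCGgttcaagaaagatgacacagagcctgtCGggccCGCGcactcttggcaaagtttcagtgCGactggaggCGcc

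The Pou4f1 window held 57 CpG, a count that 0.152% of the 32851 promoters in the table reach, where the median is 7. Skor1's upstream window held 46 CpG, reached by 1.65% of promoters, and its 2 other annotated starts held 17 and 15. Phox2a had 30 CpG (reached by 11.7%), Isl2 had 23 (21.5%), Pou4f2 and Tlx3 had 18 each (29.7%) and Tlx1 had 16 (33%). The size of the difference at 6 months did not follow this order, since Pou4f2 and Tlx3 share a count and had the largest and one of the smaller differences. The G and C content was 78.3% in Pou4f1, 79.3% in upstream Skor1, 69.7% in Pou4f2 and 51.7% in Tlx3. The core of many homeodomain sites, TAAT on either strand, matched at 5 places in the Tlx3 window and at none in any other member's windows, while 58.0% of all promoters hold at least 1. The E-box CANNTG, which reads the same on both strands, matched at 2 places in Pou4f1, at 1 in Tlx1 and at 1 in Phox2a, and 72.3% of all promoters hold it. TATAAA, counted on either strand, was in none of them and is in 13.6% of promoters. A match is a description of these letters and not evidence of a site.

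The Ezh1 transcript was lower in dKO striatum at each of the 3 ages. Its probe set with the largest spread, 1449023_a_at, averaged 0.161 ± 1.14 in dKO and 2.21 ± 0.121 in WT at 6 weeks (SD, n = 3 each), -0.436 ± 0.336 in dKO and 1.56 ± 0.164 in WT at 3 months (SD, n = 3 and 4), and -0.446 ± 0.374 in dKO and 1.65 ± 0.0742 in WT at 6 months (SD, n = 6 and 4). The differences were -2.05, -2.0 and -2.10, with limma adjusted p of 0.0105, 0.00312 and 1.7e-05. The 6-week call was lost under quantile normalization, in the fit on 2 groups and without WT replicate 1, WT replicate 2 or dKO replicate 2, with adjusted p of 0.0685 to 0.241. At 6 months quantile normalization gave -3.36. The 3 other Ezh1 probe sets gave differences of -1.86 to -1.23 at 6 weeks, -1.32 to -0.88 at 3 months and -1.25 to -0.83 at 6 months, and all dKO arrays lay below all WT arrays on each. All of these passed except 1429629_at at 3 months (limma adjusted p = 0.0542). At 6 weeks the dKO arrays read -0.37, -0.62 and 1.47 on 1449023_a_at, so that dKO replicate 3 lay between the other dKO arrays and WT, as it did on the 3 other probe sets. It is called the library labelled dKO replicate 3, and without it the 6-week difference of 1449023_a_at was -2.70, while 74 probe sets of all were called higher and 21 lower at 6 weeks, against 42 and 35 with it. Array weights gave -1.15 for that difference. The single Ezh2 probe set differed by -0.40, -0.45 and -0.43, and did not pass at any age (limma adjusted p = 0.601, 0.631 and 0.0671). Whether a probe set lies in a deleted part of either gene is not known, so it may check nothing.

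Medium spiny neurons, the principal striatal neurons, gave the check of the tissue. At 6 months 24 of 38 probe sets of their marker list, from 12 of 14 genes, fell in dKO and none rose by limma (0 also at an unadjusted p under 0.05), against 8.07% of all probe sets that fell. The list's median per array ran between -0.63 and -0.40 in dKO and between 0.01 and 0.25 in WT. At 6 weeks no probe set of the list passed by limma, but 26 of 38 were lower and 0 higher at an unadjusted p under 0.05, with a median difference of -0.49. The list's median per array then ran between -0.44 and 0.26 in dKO and between 0.22 and 0.40 in WT. At 3 months the median difference was -0.01. The part of these shifts in the members' values was not tested. In bulk tissue fewer cells of a type and less RNA per cell cannot be told apart. Pou4f1 is known from the medial habenula, a small epithalamic nucleus, and 1 of 13 habenula probe sets (Calb2) rose at 6 months. The habenula list's median per array lay between -0.08 and 0.17 in dKO and between 0 and 0.28 in WT at that age, so the 2 ranges overlapped. At 6 weeks 1 habenula probe set (of Chrna3) passed, 5 were higher and 0 lower at an unadjusted p under 0.05, and the list's median difference was 0.35. The median per array then lay between -0.07 and 0.24 in dKO and between -0.11 and -0.08 in WT, so the ranges were apart at the age when Pou4f1 (1429668_at) differed by 0.68, and the part of this in the Pou4f1 value was not tested. At 3 months no habenula probe set passed by limma (3 at an unadjusted p under 0.05), with medians of -0.20 to -0.04 in dKO and -0.27 to -0.13 in WT. Of other tissues near the striatum, thalamus markers rose on 1 (Calb2, which is on both lists) and fell on 3 of 31 probe sets at 6 months. Cortex markers then rose on 1 and fell on 1 of 15, where 7.62% of all probe sets rose and 8.07% fell. At 6 weeks 2 thalamus probe sets, both of Slc17a6, passed as higher. With an unadjusted p under 0.05, 18 of the 31 were then higher and 1 lower, and the list's median difference was 0.51. The part of this in the members' values was not tested. No choroid plexus probe set of 24 passed by limma at any age (0 at an unadjusted p under 0.05), and that list's median per array ran between -0.13 and 2.06 in dKO and between -0.13 and 2.12 in WT at 6 months.

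Pou4f2, the factor of retinal ganglion cell differentiation, had the largest difference of the 7 genes at every age. At 6 weeks its probe set, 1437588_at, read 1.33, 0.42 and -0.59 in dKO, against -1.03, -0.98 and -1.02 in WT. The lowest of these dKO values belonged to the library labelled dKO replicate 3, and still lay above every WT array of that age. At 3 months it read 3.03, 3.08 and 2.44 in dKO, against -1.12, -0.91, -0.21 and -1.20 in WT. At 6 months the lowest, median and highest dKO values were 3.80, 4.0 and 4.28, against -0.63, -0.88, -0.81 and -0.96 in WT. The groups were apart at each age, and the dKO arrays at 6 months were the closest together (SD 0.175, n = 6), while those at 6 weeks were spread widely (SD 0.957, n = 3). The difference was 1.40 ± 0.30 (SE) at 6 weeks, 3.71 ± 0.28 at 3 months and 4.81 ± 0.24 at 6 months. As linear ratios of RMA signal these are 2.63-fold, 13.1-fold and 28-fold, and they ranked 22, 1 and 3 from the top of the 38143 probe sets. Without the library labelled dKO replicate 3 the 6-week difference was 1.88, and without dKO replicate 1 it was 0.93. With quantile normalization between arrays the difference was 4.62 at 3 months and 3.78 at 6 months, so the order of these 2 ages depends on the scaling.

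Pou4f1, the paralog of sensory ganglia and habenula, was higher in dKO on both of its probe sets, and its dKO values climbed over the whole series. Probe set 1429668_at read 0.53, 0.00 and 0.03 in dKO at 6 weeks, against -0.64, -0.61 and -0.24 in WT. At 3 months it read 1.10, 1.10 and 1.84 in dKO, against -0.67, -0.55, -0.58 and -0.59 in WT. In 6-month striata the lowest, median and highest dKO values were 3.02, 3.13 and 4.12, against -0.74, -0.12, -0.70 and -0.47 in WT. All dKO arrays lay above all WT arrays of their age. The difference was 0.68 ± 0.24 (SE) at 6 weeks, 1.94 ± 0.23 at 3 months and 3.86 ± 0.19 at 6 months, the last a 14.5-fold ratio of signal. The other probe set, 1429667_at, gave 0.43 ± 0.21, 1.52 ± 0.20 and 3.09 ± 0.17 (8.51-fold at 6 months), with the same separation of the groups. Over the 23 arrays the 2 probe sets had a Pearson r of 0.983, and over the 11 WT arrays, where neither moved much, -0.034.

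In the values as deposited, the 2 Pou4f genes differed in when the dKO arrays gained most. Pou4f2 gained 2.46 between 6 weeks and 3 months and 1.14 between 3 and 6 months, whereas Pou4f1 (1429668_at) gained 1.16 and then 2.0. Pou4f3, the other paralog, known from hair cells of the inner ear, was not among the chosen genes. It was tested, but was picked for mention after its values were seen. It differed by -0.05, 0.10 and 0.14 at the 3 ages and did not pass (limma adjusted p = 0.993, 0.999 and 0.527).

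Skor1, the corepressor, was close to Pou4f1 in size on 1 of its 2 probe sets. Probe set 1437880_at read -0.35, -0.59 and -0.66 in dKO at 6 weeks, against -0.73, -1.16 and -0.80 in WT. At 3 months it read 2.80, 0.88 and 1.09 in dKO, against -0.75, -1.11, -0.42 and -0.51 in WT. At 6 months the lowest, median and highest dKO values were 3.75, 4.17 and 4.64, against 0.20, -0.17, 0.57 and -0.32 in WT. The groups were apart at each age, narrowly so at 6 weeks, and 1 dKO array at 3 months stood far above the other 2. The difference was 0.36 ± 0.34 (SE) at 6 weeks, 2.29 ± 0.32 at 3 months and 4.13 ± 0.27 at 6 months, a 17.5-fold ratio at the last age. Without dKO replicate 1 the 3-month difference was 1.69. The second Skor1 probe set, 1460100_at, differed by 0.09, 0.09 and -0.03, with overlapping groups at every age, so the 2 probe sets disagree. Where either lies in the Skor1 transcript is not known here.

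**Figure D1:**
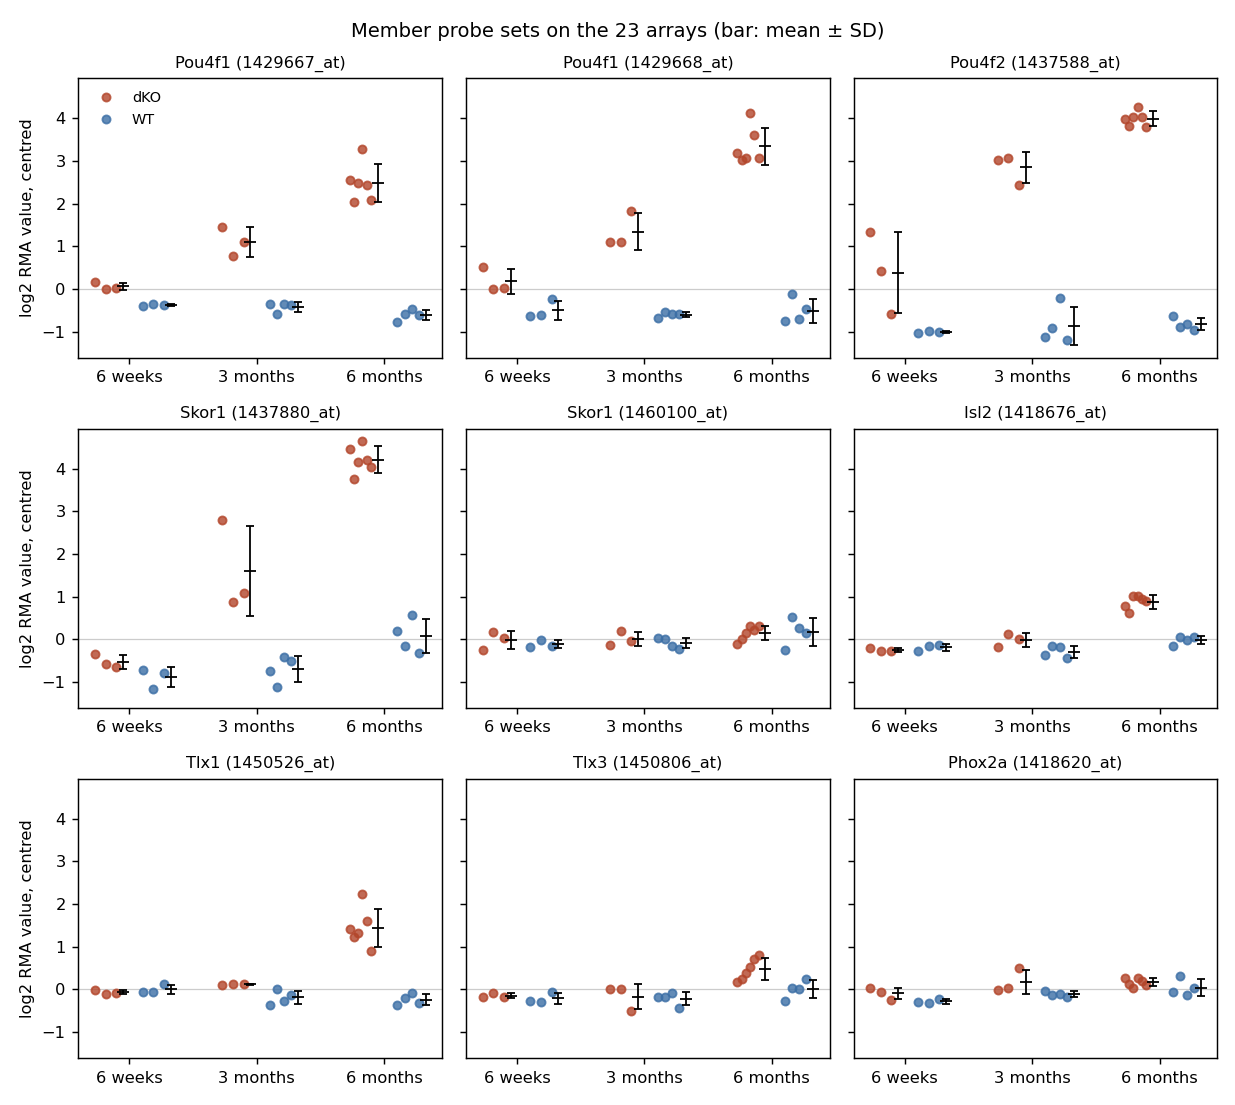
Centred log2 RMA values (vertical axis) of the 9 member probe sets on the 23 arrays, by age (horizontal axis) with dKO left of WT. Points are arrays and black bars the mean ± SD. Pou4f2 in dKO lies between 3.80 and 4.28 at 6 months, all WT arrays of that age lie below 0, and the second Skor1 probe set stays near 0 in all groups.

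Isl2, Tlx1 and Tlx3 differed later and by less. Tlx1 read -0.02, -0.12 and -0.08 in dKO at 6 weeks, against -0.06, -0.06 and 0.13 in WT, and 0.10, 0.13 and 0.12 in dKO at 3 months, against -0.36, 0.00, -0.28 and -0.12 in WT. In 6-month striata the lowest, median and highest dKO values were 0.90, 1.36 and 2.23, against -0.37, -0.21, -0.08 and -0.32 in WT. Its groups overlapped at 6 weeks, were just apart at 3 months and were far apart at 6 months. The difference was -0.07 ± 0.20 (SE), 0.31 ± 0.18 and 1.69 ± 0.16 with age, a 3.23-fold ratio at 6 months.

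Isl2 read -0.21, -0.27 and -0.28 in dKO at 6 weeks, against -0.28, -0.15 and -0.14 in WT, and -0.19, 0.12 and 0.01 in dKO at 3 months, against -0.38, -0.17, -0.18 and -0.44 in WT. At 6 months the lowest, median and highest dKO values were 0.61, 0.91 and 1.02, against -0.17, 0.06, -0.01 and 0.05 in WT. The groups were apart at 6 months alone. The difference was -0.06 ± 0.11 (SE), 0.27 ± 0.10 and 0.89 ± 0.09, a 1.85-fold ratio at 6 months. Isl1, its paralog and a factor of striatal direct-pathway neurons as well as of motor and sensory neurons, did not pass on either probe set at any age, with -0.12 and -0.16 at 6 months (limma adjusted p = 0.717 and 0.647).

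Tlx3 read -0.18, -0.08 and -0.19 in dKO at 6 weeks, against -0.28, -0.29 and -0.06 in WT, and 0.00, 0.01 and -0.52 in dKO at 3 months, against -0.19, -0.17, -0.09 and -0.44 in WT. In 6-month striata the lowest, median and highest dKO values were 0.18, 0.46 and 0.81, against -0.28, 0.04, 0.00 and 0.24 in WT. The groups overlapped at each age, at 6 months through a single WT array. The difference was 0.06 ± 0.16 (SE), 0.05 ± 0.15 and 0.48 ± 0.13. Tlx1 thus differed more than Tlx3 on the same arrays, though 2 probe sets can also respond unequally to the same change in RNA.

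Phox2a, the noradrenergic factor, had a single probe set with a smaller 6-month difference than those of the other 6 genes, the second Skor1 probe set aside. It read 0.03, -0.07 and -0.25 in dKO at 6 weeks, against -0.31, -0.33 and -0.22 in WT, and -0.01, 0.03 and 0.51 in dKO at 3 months, against -0.03, -0.14, -0.11 and -0.19 in WT. At 6 months the lowest, median and highest dKO values were 0.03, 0.16 and 0.28, against -0.07, 0.31, -0.14 and 0.03 in WT. The groups were apart at 3 months, by a hair, and overlapped at the other ages. The difference was 0.19 ± 0.12 (SE), 0.29 ± 0.12 and 0.13 ± 0.10, and without dKO replicate 3 the 3-month value was 0.12.

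**Figure D2:**
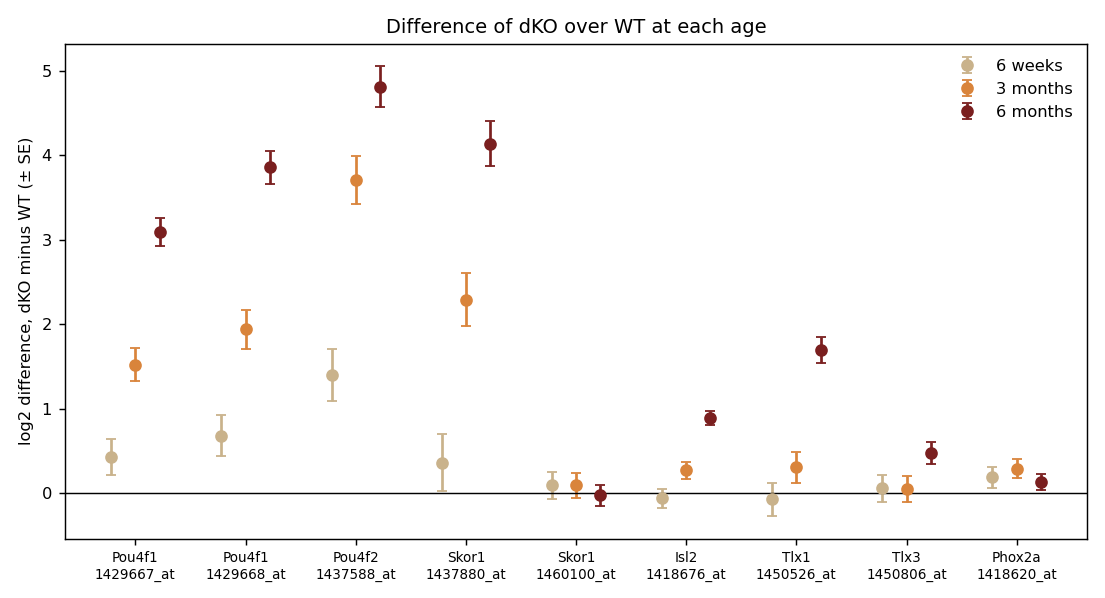
Log2 difference, dKO minus WT (vertical axis, ± SE), for each member probe set (horizontal axis) at the 3 ages. The Pou4f1, Pou4f2 and first Skor1 probe sets reach 3.09 to 4.81 at 6 months, Tlx1 1.69 and Isl2 0.89, and the second Skor1 probe set and Phox2a reach at most 0.29 at any age.

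By group mean, both Pou4f genes ran dKO at 6 months, dKO at 3 months, dKO at 6 weeks and then the WT groups. Neighbours in this order overlapped only among WT. For Pou4f2, however, the lowest dKO array at 6 weeks (-0.59) lay below the highest WT array at 3 months (-0.21), a group that is not its neighbour. Skor1 (1437880_at) ran dKO at 6 months, dKO at 3 months, WT at 6 months, dKO at 6 weeks, WT at 3 months and WT at 6 weeks, with overlap among the last 3. For Isl2 and Tlx1 only dKO at 6 months stood apart from the next group. No neighbouring groups of Tlx3 were apart, and for Phox2a only WT at 3 months and WT at 6 weeks were.

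No member probe set passed limma's adjusted p of 0.05 at 6 weeks (2 had an unadjusted p under 0.05, and 1 passed without the library labelled dKO replicate 3), where 0.110% of all probe sets were called higher. At 3 months 4 of 9 passed as higher in dKO, against 0.239% of all probe sets, and at 6 months 7 of 9, against 7.62%. The members at 3 months were those of Pou4f1, Pou4f2 and 1 Skor1 probe set, and Isl2, Tlx1 and Tlx3 joined at 6 months. Since the genes were chosen for these contrasts, nothing is read from the counts. All dKO arrays lay above all WT arrays in 4, 6 and 6 of the 9 probe sets with age, where 7.43%, 5.16% and 4.80% of all probe sets did. The median difference of the 9 was 0.19, 0.31 and 1.69, beside medians of -0.01, 0.00 and 0.00 over all probe sets.

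At each age the same dKO array was highest for several member probe sets. Among the 7 probe sets of Pou4f1, Pou4f2, Skor1 (1437880_at), Isl2, Tlx1 and Tlx3, replicate 4 was highest of the 6 dKO arrays at 6 months in 5. The second Skor1 probe set and Phox2a, left out of the 7 for their small 6-month differences, were also highest in replicate 4 at that age. At 6 weeks dKO replicate 1 was highest in 6 of the 7. At 3 months replicates 1, 2 and 3 were highest in 2, 4 and 1, and replicate 2 was the lowest for both Pou4f1 probe sets and Skor1. Over the 12 dKO arrays, which differ in age, Pearson r was 0.899 between Pou4f1 (1429668_at) and Pou4f2, 0.944 between Pou4f1 and Skor1, 0.949 between Pou4f1 and Tlx1, 0.956 between Pou4f1 and Isl2, and 0.611 between Pou4f1 and Phox2a. Over the 6 dKO arrays at 6 months alone, r was 0.889 between Pou4f1 and Pou4f2 and 0.932 between Pou4f1 and Tlx1, and 0.284 between Pou4f1 and Tlx3. In the 11 WT arrays r was -0.131 between Pou4f1 (1429668_at) and Pou4f2 and -0.149 between Pou4f1 and Skor1. The same Pou4f1 probe set gave 0.524 with Phox2a, 0.475 with Tlx3 and 0.462 with Isl2. The other Pou4f1 probe set, 1429667_at, gave -0.498 with Phox2a, -0.272 with Tlx3 and -0.482 with Isl2, so the signs disagree. Other WT pairs ran both ways, with 0.826 between Isl2 and Tlx3 and -0.531 between Tlx1 and Phox2a. Members on the same arrays share library and mouse, so these values are a description.

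The course with age in WT striatum is another contrast than the one the genes were chosen by, but the WT arrays enter both, so its tests are not fully independent of the choice. From 6 weeks to 3 months none of the 9 probe sets changed in WT by limma, with 0 at an unadjusted p under 0.05, where 8.33% of all probe sets were called. From 3 to 6 months Isl2 rose by 0.27 ± 0.09 (limma adjusted p = 0.0476), the only 1 of 9, against 18.7% of all probe sets. From 6 weeks to 6 months Skor1 (1437880_at) rose by 0.96 ± 0.32 (limma adjusted p = 0.042), again 1 of 9, against 15.8%. Both calls lie near the threshold. The 6-week-to-6-month count was 0 without WT replicate 1, 2 or 3 of 6 weeks or WT replicate 2 of 6 months, and the 3-to-6-month count was 0 in 14 of the 23 fits that left out 1 array. Phox2a gave 0.32 ± 0.12 over the same span (limma adjusted p = 0.0629). Pou4f1 (1429668_at) gave -0.01 ± 0.23 and Pou4f2 0.19 ± 0.28, with limma adjusted p of 0.979 and 0.683.

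Paralogs of the members and genes of 5 neuron classes were examined as 6 lists of 91 genes, of which 83 were measured on 186 probe sets. At 6 weeks 3 of the 186 probe sets rose in dKO and none fell by limma (12 fell at an unadjusted p under 0.05), and at 3 months 7 rose and none fell (6 unadjusted). These are 1.61% and 3.76% of the lists' probe sets, against 0.110% and 0.239% of all probe sets, while 0.0918% and 0.0236% of all fell. At 6 months 54 rose and 9 fell (29.0% and 4.84%, against 7.62% and 8.07% of all probe sets). The median difference over the lists was 0.00, 0.06 and 0.10 with age. The lists were written from textbook knowledge with earlier results of these arrays known, so their direction is not independent evidence.

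At 6 weeks the risers were both probe sets of Slc17a6, the vesicular glutamate transporter of subcortical neurons, by 2.11 ± 0.42 and 2.18 ± 0.37 (limma adjusted p = 0.0341 and 0.0108), and Chrna3, a nicotinic receptor subunit of autonomic ganglia and habenula, by 0.83 ± 0.15 (limma adjusted p = 0.0154) on 1 of 3 probe sets, the other 2 giving 0.09 and 0.38. The median of the thalamus markers per array, which include Slc17a6, ran between -0.10 and 0.26 in dKO and between -0.39 and -0.18 in WT at this age, and the part this has in the result was not tested. Cortex markers ran between -0.55 and 0.83 in dKO and between -0.55 and 0.05 in WT. Without WT replicate 1 or WT replicate 2 none of the 186 passed, and leaving out dKO replicate 2 gave 1 higher. Leaving out dKO replicate 1 gave 5 higher and 5 lower, and leaving out the library labelled dKO replicate 3 gave 3 higher.

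At 3 months Nkx6-1, a factor of motor neuron progenitors, rose by 1.62 ± 0.19 (limma adjusted p = 0.000111), Runx3, which specifies proprioceptive sensory neurons, by 1.29 ± 0.18 (limma adjusted p = 0.000874), and Aldh1a2, an enzyme of retinoic acid synthesis, by 2.67 ± 0.38 (limma adjusted p = 0.00107). Gata3 rose by 1.02 ± 0.21 (limma adjusted p = 0.0431) and all 3 Onecut2 probe sets by 1.19 to 1.28. Without dKO replicate 1 or dKO replicate 2 the count of 7 dropped to 3.

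At 6 months dorsal horn and hindbrain genes had the most risers, 16 of 41 probe sets and none lower by limma (0 also at an unadjusted p under 0.05), with a median of 0.30. Slc6a5, the glycine transporter of inhibitory spinal and hindbrain neurons, averaged 3.96 ± 0.784 in dKO and -0.151 ± 0.208 in WT (SD, n = 6 and 4), a rise of 4.11 ± 0.27 (SE, limma adjusted p = 4.86e-10). Its other probe set gave 0.07 (limma adjusted p = 0.774), so the 2 disagree. Lbx1, the homeobox partner of Skor1 in dorsal interneurons, averaged 3.58 ± 0.262 in dKO and -0.0606 ± 0.227 in WT, a rise of 3.64 ± 0.14 (limma adjusted p = 3.75e-14). Lhx5, a LIM-homeodomain factor of spinal interneurons, rose by 1.86 ± 0.14 (limma adjusted p = 3.17e-09).

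Sensory ganglion genes were called higher on 10 of 55 probe sets and lower on 1, with a median of 0.05. Runx3 rose by 2.37 ± 0.15 (limma adjusted p = 3.72e-10) with dKO arrays from 1.62 to 2.35 and WT arrays from -0.62 to -0.17, while its other probe set gave 0.17 (limma adjusted p = 0.341). Neurod1, a proneural factor, rose by 1.72 ± 0.39 (limma adjusted p = 0.00409). Shox2 rose by 1.75 ± 0.49 (limma adjusted p = 0.0175), with WT arrays from -1.04 to 1.34, and lost the call without WT replicate 2 and under quantile normalization, while its other probe set rose by 1.37 ± 0.30 (limma adjusted p = 0.00377).

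Retinal ganglion cell genes were called higher on 9 of 39 probe sets and lower on 1, with a median of 0.17. Ebf3 rose by 2.16 ± 0.19 (limma adjusted p = 7.88e-08), Eomes by 1.57 ± 0.23 (limma adjusted p = 9.74e-05) and Onecut1, which acts upstream in retinal precursors, by 1.06 ± 0.10 (limma adjusted p = 1.09e-07). Nefm, a neurofilament of large axons in many neurons, fell by 0.35 ± 0.12 (limma adjusted p = 0.0458), a call that 19 of 33 alternatives lost.

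Autonomic and noradrenergic genes were called higher on 12 of 38 probe sets and lower on 1, with a median of 0.12. Tbx20 rose by 3.61 ± 0.22 (limma adjusted p = 1.52e-10), Hand2, which drives the sympathetic noradrenergic fate, by 3.24 ± 0.15 (limma adjusted p = 5.89e-13), and Gata2 by 2.47 ± 0.10 (limma adjusted p = 1.38e-13). Other probe sets gave less: Tbx20 rose by 0.67 on one and gave -0.07 on another (limma adjusted p = 0.00338 and 0.638), and Hand2 rose by 0.39 on one and gave 0.08 on another (limma adjusted p = 0.0462 and 0.775). On the separate list of paralogs, where 4 of 5 genes were measured on 6 probe sets, 2 rose, among them Tlx2 by 0.46 ± 0.10 (limma adjusted p = 0.00393), and the median was 0.27. Slc18a2, the vesicular monoamine transporter, fell by 1.14 ± 0.25 (limma adjusted p = 0.00367), with WT arrays from 0 to 2.01.

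Motor neuron genes moved both ways, with 7 of 22 probe sets higher and 6 lower and a median of -0.14. Mnx1 rose by 2.96 ± 0.17 (limma adjusted p = 4.95e-11), Nkx6-1 by 2.79 ± 0.16 (limma adjusted p = 7.52e-11) and Aldh1a2 by 2.35 ± 0.33 (limma adjusted p = 4.4e-05). Slc18a3, the vesicular acetylcholine transporter, which striatal cholinergic interneurons also use, fell by 1.40 ± 0.18 (limma adjusted p = 2.29e-05). The other 5 lower probe sets were all of Foxp1, which is also on the medium spiny neuron list, the largest at -0.78 ± 0.14 (limma adjusted p = 0.000578). Chat, the acetylcholine-synthesising enzyme of motor neurons, gave 0.08 ± 0.10 (limma adjusted p = 0.647).

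**Figure D3:**
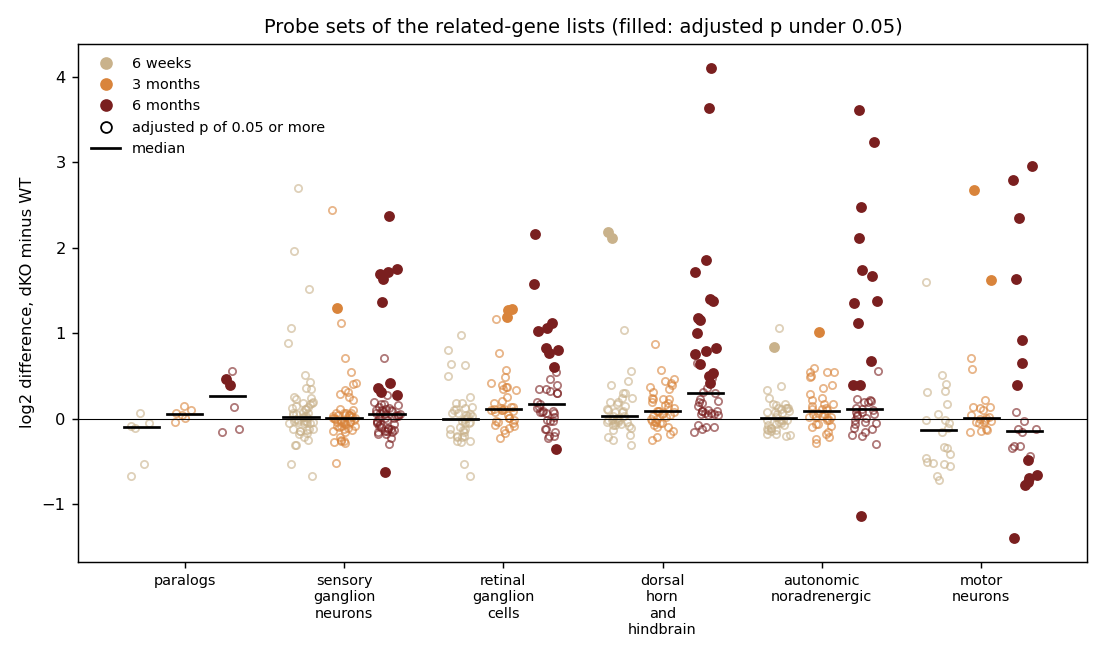
Log2 difference, dKO minus WT (vertical axis), of every probe set on the 6 related-gene lists (horizontal axis) at the 3 ages. Filled points passed an adjusted p of 0.05 over all probe sets and black lines are medians. At 6 months 54 of the 186 probe sets are filled above 0 and 9 below, and Slc6a5 at 4.11 is the highest.

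Chromosomal neighbours of the members were examined next. The 2 nearest measured genes on each side gave 28 genes on 53 probe sets, of which none passed by limma at 6 weeks or 3 months (4 and 6 at an unadjusted p under 0.05), and 7 rose and 2 fell at 6 months, with a median of 0.08. These are 13.2% and 3.77% of the neighbours' probe sets, against 7.62% and 8.07% of all. The neighbours of Pou4f1, Isl2 and Phox2a held no call by limma at 6 months (0, 1 and 0 at an unadjusted p under 0.05). Those of Tlx1 held the most: Lbx1, next to it on one side, rose on both probe sets, by 3.64 ± 0.14 and 1.72 ± 0.15 (limma adjusted p = 3.75e-14 and 6.98e-08), and Kazald1, next to it on the other, rose by 1.02 ± 0.21 (limma adjusted p = 0.00195). Btrc, a ubiquitin ligase subunit beyond Lbx1, gave 0.57 and -0.55 on 2 called probe sets, which disagree. Beside Pou4f2, the called values were 0.21 (Rbmxl1) and -0.44 (Slc10a7), beside Skor1 0.68 (2300009A05Rik) and beside Tlx3 0.31 (Ranbp17).

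**Figure D4:**
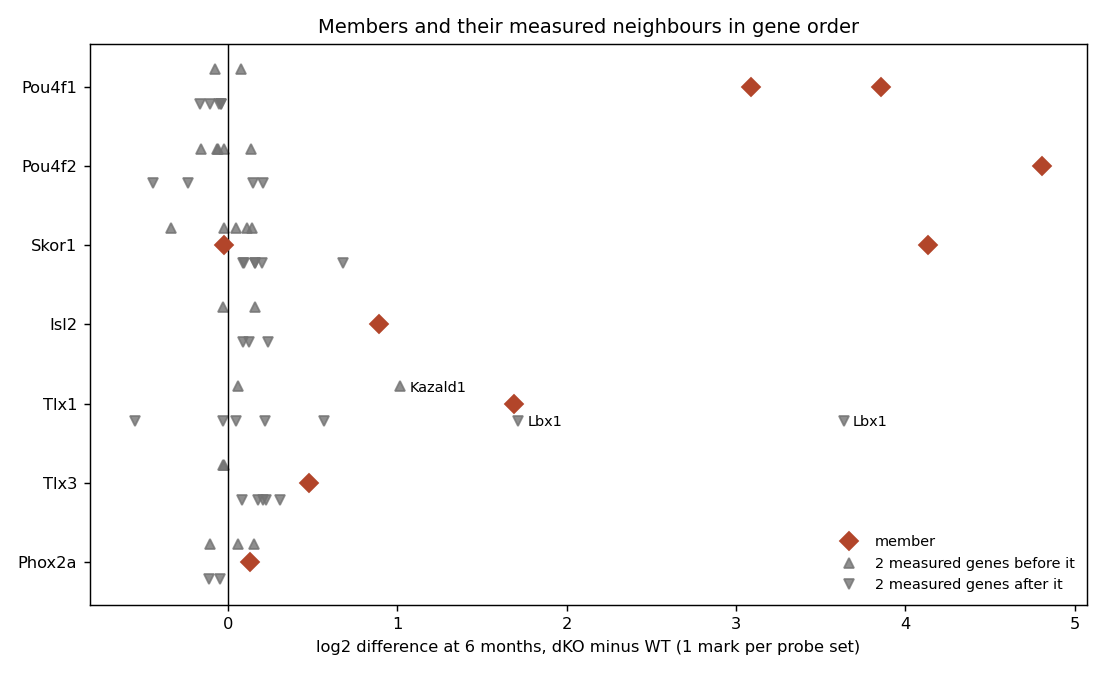
Log2 difference at 6 months, dKO minus WT (horizontal axis), of the member probe sets (diamonds) and of the 2 measured genes on each side in gene order (triangles), 1 row per member. The neighbours of Pou4f1, Pou4f2 and Skor1 lie between -0.44 and 0.68, and those of Tlx1 reach 3.64 at Lbx1.

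Likeness in pattern was measured as Pearson's r over the 23 arrays with every gene outside the members, predicted and clone-named genes left out. Pou4f1 (1429668_at) was most like Hoxd8, Tal1 and Hoxc8 (Pearson r = 0.982, 0.981 and 0.980, n = 23 arrays), and Pou4f2 like Twist1, Cdkn2a and Pnmt (0.981, 0.973 and 0.972). Skor1 was most like Barx1, Six6 and Gata6 (0.980, 0.978 and 0.971), Isl2 like Hoxa5, Hoxc9 and Lbx1 (0.973, 0.968 and 0.963), and Tlx1 like Hoxd9, Tbx20 and Lbx1 (0.976, 0.964 and 0.961). For Tlx3 the highest values were lower, 0.921 with Pdzk1ip1 and 0.914 with Gata4, and for Phox2a 0.797 with Cabp7. These arrays differ in genotype and age, so the values are a description. Over the 12 dKO arrays alone the closest gene was Fam221a for Pou4f1 (0.981), Tfap2c for Pou4f2 (0.967), Barx1 for Skor1 (0.987), Obsl1 for Isl2 (0.988), Tfap2a for Tlx1 (0.984), Serpina12 for Tlx3 (0.986) and Terf2ip for Phox2a (0.903). Each is the highest of many values over few arrays that differ in age, so these too are a description. The 6-month differences of these closest genes ran from 0.03 (Serpina12) to 3.25 (Barx1).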

How the data were processed

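Arrays of 23 mouse striata in 6 groups (2 genotypes at 3 ages) were compared, grouped by the sample labels. The deposited values are log2 values made by the authors using RMA, according to the submitters' processing notes. The table itself shows a centring of each probe set, since 39666 of 45101 (87.95%) hold an array at exactly 0, and the arrays that set the centre are not known. Centring removes levels, so no filter on dim probe sets was possible, and fold values are ratios of RMA signal, which understates changes of genes near background. The values run from -7.11 to 8.13. In the authors' table with gene symbols 2 columns with a shared name were left out, and the 21 others were identical to the value table (largest difference 0).

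One mean per group was fitted with limma 3.58.1 in R 4.3.3 (lmFit and eBayes, residual df 17, total df 21.8) to the 38143 probe sets with 1 symbol. Another 1253 have several symbols and 5705 have none. Tests were two-sided, with Benjamini-Hochberg adjustment over the 38143 and a threshold of 0.05. Symbols of 2004 probe sets were updated through RefSeq, and promoters came from RefSeq on GRCm38.p6. The fit was tested on simulated data. The members and lists were chosen with earlier results of these data known. Named are all member, Ezh1 and Ezh2 probe sets, for each list up to 3 called genes each way, by size of change in the oldest mice, the measured neighbours, and the 3 genes most like each member. Other list genes (Slc17a6, Chrna3, Gata3, Onecut2, Isl1, Pou4f3 and Chat) were picked after their values were seen. Alternatives were quantile normalization, centring arrays on their medians, all probe sets or 1 per gene, 2-group fits, trended and robust eBayes, array weights, covariates (Xist, Gapdh 3′ minus 5′), a replicate block, and each array left out. The design gives at least 3 biological replicates per group. The smallest median absolute difference between 2 arrays was 0.104. The number of arrays limits the precision. Some called list genes are not reported here.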

Additional observations from a re-analysis of the deposited data

Results flagged for a closer look

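Of 27 sets of member values in groups of 4 or more arrays, 1 held an array far from the others: Pou4f1 (1429667_at) read -0.586 in WT replicate 2 at 3 months, below the other 3 WT arrays, which lay between -0.38 and -0.35. Chance alone marks about 1 in 20 such sets, and the other Pou4f1 probe set shows no such gap there. Limma's test of a change in the genotype effect between 6 weeks and 6 months called 0.710% of all probe sets. Of 22 list genes named at 6 months, 12 were called by this test. Their 6-month effect minus their 6-week effect was 2.24 for Runx3 (limma adjusted p = 1.1e-05), 1.53 for Ebf3 (0.0161), 0.81 for Onecut1 (0.0101), 3.72 for Slc6a5 (2.43e-05), 3.75 for Lbx1 (5.15e-10) and 2.11 for Lhx5 (4.09e-06). It was 3.68 for Tbx20 (1.49e-06), 3.08 for Hand2 (2.5e-08), 2.49 for Gata2 (2.35e-09), 2.55 for Mnx1 (6.25e-06), 2.81 for Nkx6-1 (8.96e-07) and -1.29 for Slc18a3 (0.0406). These genes were named for their change at 6 months, so a larger effect at that age is partly built into the choice. The 2 ages share no arrays.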

How the results depend on the processing

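The members kept the sign of their difference under the 33 alternatives (10 settings and 23 arrays left out in turn) except for Tlx3 before 6 months and the second Skor1 probe set after 6 weeks, all of which lay near 0. Quantile normalization moved most: 6-month differences were 3.78 for Pou4f2, 2.87 and 2.41 for Pou4f1, 3.06 for Skor1 and 1.41 for Tlx1, and 3-month ones 4.62 for Pou4f2 and 2.4 for Pou4f1 (1429668_at). Array weights gave 0.71 for Pou4f2 at 6 weeks. Over all probe sets the 6-week calls were 42 higher and 35 lower, the 3-month calls 91 and 9, and the 6-month calls 2905 and 3079. Quantile normalization gave 54 lower at 6 weeks (43.2% of calls higher, against 54.5%), 174 higher and 18 lower at 3 months, 13 related-gene rises at 3 months, 2 member calls in WT from 3 to 6 months and 0 from 6 weeks to 6 months. Testing every probe set of the table gave 4 related-gene rises at 3 months and 0 member calls in WT from 3 to 6 months. With 1 probe set per gene, where fewer features are tested, there were 25 higher and 18 lower at 6 weeks, 1874 and 1853 at 6 months, and 33 related-gene rises and 5 falls at 6 months. Fits on 2 groups gave at 6 weeks 8 higher and 4 lower, at 3 months 147 higher and 20 lower, at 6 months 1347 higher and 1432 lower, and 0 related-gene rises at 6 weeks. Trended and robust eBayes gave 4 lower at 3 months and 0 member calls in either WT comparison with 6 months. Array weights gave 2262 higher and 2627 lower at 6 weeks, 277 and 90 at 3 months (75.5% higher, against 91.0%), 22 related-gene rises and 21 falls at 6 weeks, 15 rises at 3 months, 2 members called at 6 weeks, and 3 member calls in each WT comparison with 6 months. Xist as a covariate gave 85 higher and 75 lower at 6 weeks and 0 member calls in either WT comparison with 6 months. The Gapdh 3′ minus 5′ covariate gave 27 higher and 20 lower at 6 weeks, 5 lower at 3 months and 0 member calls in either WT comparison with 6 months. The replicate block gave 22 higher and 15 lower at 6 weeks, 4 related-gene rises at 3 months and 0 member calls in WT from 3 to 6 months. Same-numbered dKO and WT arrays had correlations of -0.365 to 0.153 in their deviations from the group means. With so few arrays per group these values cannot tell whether the numbers pair the mice. The cause of these shifts was not tested. With 1 array left out, all-probe-set counts ran from 8 to 169 higher and 7 to 239 lower at 6 weeks, 40 to 114 and 3 to 17 at 3 months, and 1935 to 3455 and 2278 to 3721 at 6 months. Related-gene rises ran from 0 to 5, 3 to 9 and 48 to 57 with age, and falls from 0 to 5 at 6 weeks, 0 to 0 at 3 months and 7 to 11 at 6 months. Member calls ran from 0 to 1 at 6 weeks, 4 to 4 at 3 months and 6 to 7 at 6 months, and from 0 to 2 in WT from 3 to 6 months and from 6 weeks to 6 months. Since the members were chosen for the dKO-minus-WT contrasts, nothing is read from their calls in those contrasts.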
